A study of Mus musculus with 9 samples.

Results

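Of the Kruppel-like factor family, 10 genes (Klf2, Klf3, Klf4, Klf5, Klf6, Klf7, Klf9, Klf10, Klf13 and Klf15) were followed by their symbol among the 11063 genes measured in non-epithelial cells of the mouse mammary gland, and all 10 had a row. Each of them reached 10 normalized counts in at least 4 libraries, the filter that left 6815 genes for testing. The cells came from female FVB/N mice that were 6 weeks old at the start. For 8 weeks, 4 mice were fed ad libitum and 5 were under calorie restriction (CR), receiving 65% of the food of the former per the submitters' notes, a share that differs from the one in the study's text. From the #4 mammary glands of each mouse, 15000 Lin- CD24neg CD49fneg cells were sorted and 30 ng of RNA entered a bulk MARS-Seq library, in which each RNA molecule is tagged at its 3′ end and counted once. The Lin- step depletes endothelial cells and part of the hematopoietic cells and fibroblasts, so the sorted cells are a mixture, and in such bulk libraries fewer cells of a type cannot be told apart from less RNA per cell. Each library stands for 1 mouse, named here by its diet and number (ad libitum 2 to 5 and CR 1 to 5). The comparison asked which of these genes differed in level between the diets.

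Kruppel-like factors are transcription factors that bind CACCC and GC-rich sites in promoters through a block of C2H2 zinc fingers near their C terminus, and their N-terminal parts recruit coactivators or corepressors. Members compete for similar sites, so their relative levels are of interest as well as each level alone. KLF4 and KLF6 belong to the genes that respond within minutes to hours to growth factors and injury, KLF9 is a well-known target of the glucocorticoid receptor, and KLF2 keeps naive T cells quiescent and circulating and responds to flow in endothelium. In adipose tissue, which surrounds the mammary ducts, several members act at different steps of fat cell formation.

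In CR mice, Klf4 and Klf9 had mean levels 2.58 and 2.57 times those of ad libitum-fed mice, and Klf6 1.48 times. Their levels did not overlap between the diets, while Klf2 and the other 6 members did not pass the test in either direction. Klf2 had the highest mean of the family in ad libitum-fed mice and Klf4 in CR mice.

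The promoters of the genes these results turn on are printed below, namely of Klf4, Klf9 and Klf6, which rose, and of Klf2, which did not pass the test. They are taken from RefSeq on GRCm38.p6, the assembly of the mm10 build that the deposited table was aligned to, and run 5′ to 3′ on the strand of the gene from 250 bases before to 50 bases after its start. They lie at chr4:55532426-55532725 (minus strand) for Klf4, chr19:23140976-23141275 (plus strand) for Klf9, chr13:5861239-5861538 (plus strand) for Klf6 and chr8:72318812-72319111 (plus strand) for Klf2. Capitals mark each match to CACCC, the core of Kruppel-like factor sites, or to GGGCGG, the GC box of SP factors, on either strand, so that they also read GGGTG or CCGCCC.
Klf4: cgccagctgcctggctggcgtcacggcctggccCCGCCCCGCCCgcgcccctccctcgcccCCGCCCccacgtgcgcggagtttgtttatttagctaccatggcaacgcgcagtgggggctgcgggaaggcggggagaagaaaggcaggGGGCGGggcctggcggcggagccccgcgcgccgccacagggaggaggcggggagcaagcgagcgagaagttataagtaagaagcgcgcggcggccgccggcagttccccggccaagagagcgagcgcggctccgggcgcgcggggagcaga
Klf9: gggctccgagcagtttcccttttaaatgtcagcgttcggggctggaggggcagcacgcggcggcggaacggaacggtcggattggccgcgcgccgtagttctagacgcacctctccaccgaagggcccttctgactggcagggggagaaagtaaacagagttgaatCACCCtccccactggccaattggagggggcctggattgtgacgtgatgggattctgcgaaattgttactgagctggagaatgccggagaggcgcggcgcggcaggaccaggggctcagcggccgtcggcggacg
Klf6: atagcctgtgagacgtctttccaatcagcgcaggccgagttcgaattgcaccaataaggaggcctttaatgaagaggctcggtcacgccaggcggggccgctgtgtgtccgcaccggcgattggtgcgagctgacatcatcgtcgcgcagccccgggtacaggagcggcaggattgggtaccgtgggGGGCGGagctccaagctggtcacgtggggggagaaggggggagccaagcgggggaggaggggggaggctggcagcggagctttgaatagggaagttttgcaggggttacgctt
Klf2: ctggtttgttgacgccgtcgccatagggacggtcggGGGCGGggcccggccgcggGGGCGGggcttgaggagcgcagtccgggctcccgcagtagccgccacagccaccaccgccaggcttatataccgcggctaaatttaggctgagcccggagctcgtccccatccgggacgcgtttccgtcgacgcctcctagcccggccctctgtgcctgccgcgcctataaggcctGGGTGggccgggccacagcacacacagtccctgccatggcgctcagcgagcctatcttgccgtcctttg

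Of the 8 members with a promoter in the reference table (all but Klf5 and Klf10), 7 held a GGGCGG box, against 35.7% of 32851 windows of the same length, and 6 held CACCC, against 57.5% of all windows. Klf9 was the member without a GGGCGG box and had a single CACCC, which began at -84 (counted from the start, with -1 the base before it). Klf4 had 4 GC boxes, of which a pair that overlap by 1 base began at -217 and -212, and had no CACCC. Klf6 held a single GC box that began at -63, and Klf2 held 2 GC boxes and 1 CACCC. The cAMP response element TGACGTCA, the CArG box of serum response factor and the glucocorticoid half-site AGAACA had 0 matches on either strand in the 8 windows, and they occur in 1.79%, 1.63% and 19.0% of all windows. The members' windows were GC-rich, with a median of 70.7% G and C against 52.7% over all windows, and GC-rich windows hold GC boxes more readily. A match describes the letters and is not evidence of binding.

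The genes themselves lie apart on 10 chromosomes of GRCm38.p6. Klf4 spans chr4:55527137-55532475, Klf9 chr19:23141226-23168129, Klf6 chr13:5861489-5870393 and Klf2 chr8:72319062-72321654. The other members are Klf7 at chr1:64029448-64122345, Klf3 at chr5:64803521-64832901, Klf15 at chr6:90461043-90491803, Klf13 at chr7:63886351-63938915, Klf5 at chr14:99298691-99313412 and Klf10 at chr15:38291464-38300711.

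The libraries differed in depth along with the diet. The recovered counts, which are the whole molecule counts behind the normalized values, summed to 382877 to 817030 (median 480190) in ad libitum-fed mice and to 785301 to 1485963 (median 974109) in CR mice, and depth and diet cannot be told apart. A count of 0 allows up to 3 counts, or 2.69 to 5.85 normalized counts in ad libitum-fed and 1.55 to 2.90 in CR libraries, for counting error only. No member was at 0 in any library. The lowest count was 4 (Klf10 in ad libitum 3) and the highest 1297 (Klf4 in CR 3). Marker lists of the cell types that the sort could hold also moved with diet. Summed normalized counts of 15 T cell markers were 1684 to 3027 in ad libitum-fed and 118 to 244 in CR mice, and all 14 tested fell. NK cell markers (5 of 9 listed had a row) summed to 91.4 to 276 against 10.3 to 26.7, B cell markers (3 of 8) to 29.2 to 58.6 against 0.81 to 10.3, and mast cell markers (6 of 8) to 344.8 to 630.1 against 29.1 to 133. All tested genes of these 3 lists (2, 1 and 4) fell. Fibroblast markers (14 of 14) summed to 6702 to 12440 in ad libitum-fed and 11903 to 14891 in CR mice, and 4 of 13 tested rose. Pericyte and smooth muscle markers (10 of 10) summed to 290.3 to 353 against 317 to 894.9, and 2 of 6 tested rose. The lists of macrophages and monocytes (8 of 14, 138 to 302 against 56.6 to 333), endothelium (11 of 12, 123 to 171.5 against 93.9 to 179.9), epithelium (5 of 12, 27.3 to 76.0 against 15.9 to 24.8) and adipocytes (4 of 7, 37.4 to 125.7 against 30.6 to 184) showed 0, 2, 0 and 0 genes that rose and 0, 1, 0 and 0 that fell, of 3, 5, 1 and 1 tested. Epcam, Krt5, Krt8 and Krt14 of epithelium and Csf1r and Adgre1 of macrophages had no row, so the sums of these lists do not include them. No listed marker with a row was at 0 in all libraries, and the part of these cell types in the family's values was not tested.

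At an adjusted p of at most 0.05 (limma, Benjamini-Hochberg over the 6815 genes), 3 of the 10 members rose in CR and 0 fell, while over all genes tested 7.98% rose and 9.14% fell. With the added requirements of a 1.5-fold change and at least 30 recovered counts in 1 library, 2 members (Klf4 and Klf9) were called higher and 0 lower, against 7.72% and 7.94% of all genes. Levels of 3 members were higher in every CR mouse than in every ad libitum-fed mouse and of 0 members lower, against 7.29% and 9.63% of all genes. In this fit no member was lower at an unadjusted p under 0.05 either, while Klf2 was under some alternatives given below. At an adjusted p of at most 0.05, edgeR and DESeq2 on the recovered counts also gave 3 higher and 0 lower. The median log2 fold change (CR against ad libitum) over the 10 members was 0.55, with 8 above 0, and over all genes it was 0.07, with 54.3% above 0. These counts describe the family, whose members were chosen with earlier results of these data known. The libraries were also scaled so that the fibroblast markers were level. The median over all genes then moved to -0.40 and that over the members to 0.09. Klf4 and Klf9 still rose, Klf6 did not pass, and Klf2 fell. The log2 fold changes of Klf3 and Klf13 were then -0.0051 and -0.36, and neither passed.

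**Figure D1:**
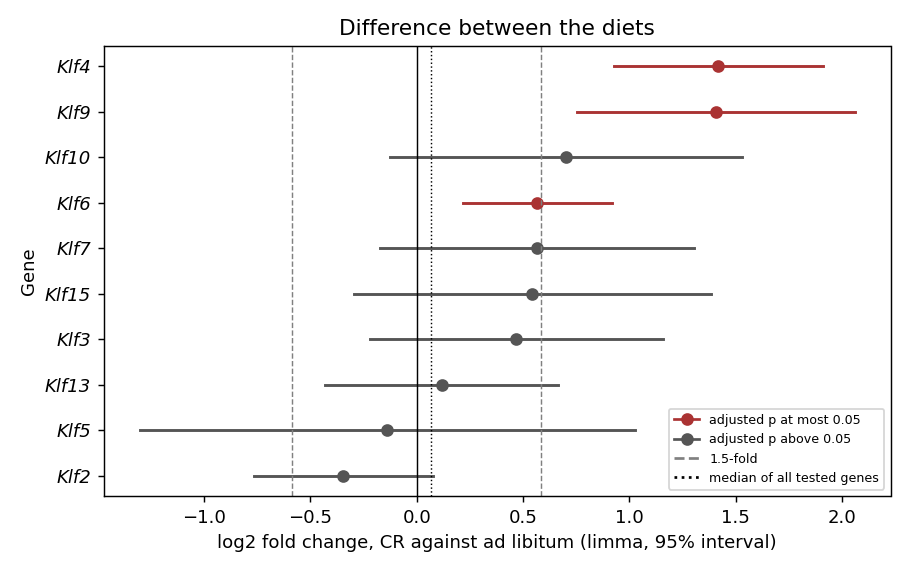
The log2 fold change of each member (CR against ad libitum, x axis) is drawn with its 95% interval from limma for 4 ad libitum-fed and 5 CR mice, with the genes on the y axis. Only the intervals of Klf4 (0.93 to 1.91), Klf9 (0.75 to 2.06) and Klf6 (0.22 to 0.92), in red, lie above 0, and that of Klf6 crosses the dashed line at 1.5-fold. Under scaling to fibroblast markers Klf6 did not pass and Klf2 fell (-0.83). Klf3 and Klf13 were at -0.0051 and -0.36 there, and neither passed.

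Klf4, a zinc finger factor best known as one of the reprogramming factors of pluripotent cells and as a brake on proliferation in many tissues, was measured at 356, 298, 156 and 384 normalized counts in ad libitum 2, 3, 4 and 5. In CR 1 to 5 its normalized counts were 749.9, 773, 763, 561 and 998.5. The lowest CR mouse was thus above the highest ad libitum-fed mouse, and ad libitum 4 stood well under the other 3 of its diet. The means were 299 ± 102 (SD, n = 4) and 769 ± 155 (SD, n = 5), a log2 fold change of 1.42 ± 0.23 (SE) and an adjusted p of 0.000308. That placed Klf4 at rank 224 of the 6815 genes by p. Behind these levels stood 121 to 397 recovered counts per ad libitum library and 776 to 1297 per CR library. With ad libitum 4 left out the log2 fold change was 1.13, and with the libraries scaled to fibroblast markers it was 0.93 (adjusted p = 0.00429).

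Klf9, which in liver, brain and other tissues is induced by glucocorticoids and thyroid hormone and represses many of its targets, stood at 180.4, 119, 54.1 and 159 normalized counts in the ad libitum-fed mice, in the order of their numbers. Its normalized counts in the CR mice were 239, 229, 285, 334 and 558.5. Again no values overlapped, with ad libitum 4 the lowest of all and CR 5 the highest of all by a wide margin. The means were 128 ± 55.5 (SD, n = 4) and 329 ± 135 (SD, n = 5). The log2 fold change was 1.41 ± 0.31 (SE) and the adjusted p 0.00391. Recovered counts ran from 42 to 201 in ad libitum and from 247 to 651 in CR libraries. Both extreme libraries bear on the size of the change. With ad libitum 4 and CR 5 left out together, an alternative chosen after seeing the data, Klf9 had a log2 fold change of 0.83 and an adjusted p of 0.0179. Scaling to fibroblast markers gave 0.92 and an adjusted p of 0.0196.

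Klf6, an activator of TGF-beta pathway and matrix genes after tissue injury, gave normalized counts of 238, 234, 187 and 255 in the ad libitum-fed mice. In CR mice its normalized counts were 305, 299.8, 340.4, 352 and 394. The spread within each diet was the smallest of the family (coefficients of variation of 12.8% and 11.3%), and the diets did not overlap. The means were 228 ± 29.2 (SD, n = 4) and 338 ± 38.2 (SD, n = 5). The log2 fold change was 0.57 ± 0.17 (SE) with an adjusted p of 0.0254, and the fold of 1.48 lay just under the 1.5-fold required for a call. The result depended on single libraries, as the adjusted p was 0.0727 without ad libitum 4, 0.0532 without CR 4 and 0.0663 without CR 5. Under scaling to fibroblast markers the log2 fold change of Klf6 was 0.08 (adjusted p = 0.826).

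**Figure D2:**
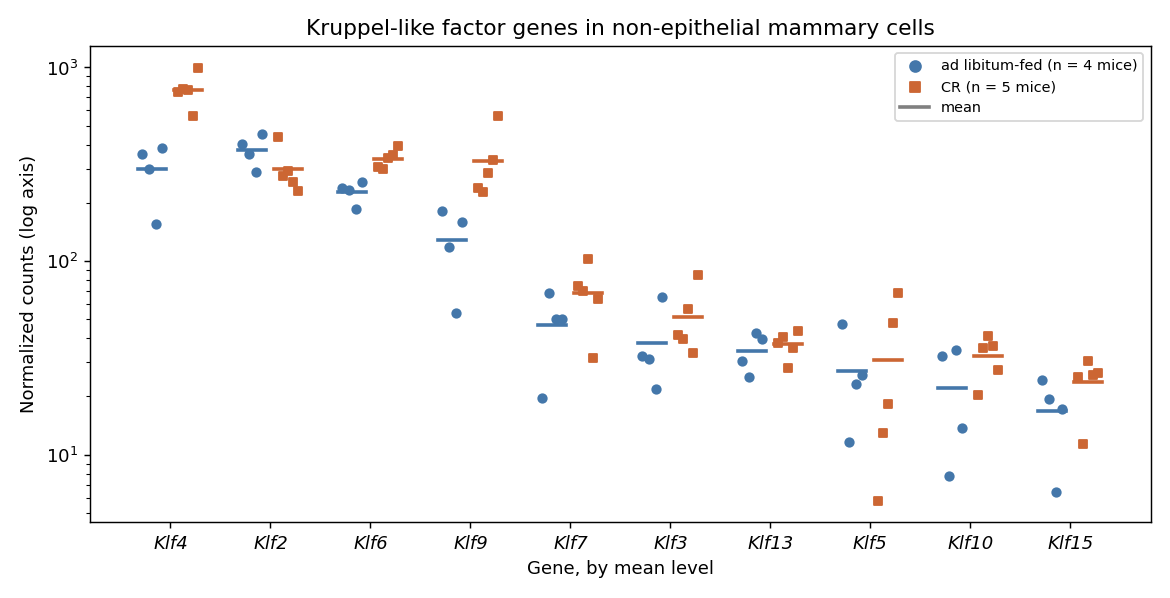
Normalized counts (log axis, y) of the 10 members (x, ordered by mean over all libraries) are shown for each ad libitum-fed mouse (circles, n = 4) and each CR mouse (squares, n = 5), with a line at each mean. Points of the diets are apart for Klf4, Klf6 and Klf9, at 561 to 998.5 against 156 to 384, 299.8 to 394 against 187 to 255, and 229 to 558.5 against 54.1 to 180.4, and overlap for the other 7 genes.

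Klf4 and Klf6 respond early to stimulation and to tissue dissociation in many cell types, and other genes with this kind of response were followed beside them. Of 30 listed genes, such as the AP-1 subunits and heat shock genes, 28 were tested, of which 12 rose and 0 fell in limma (0 also at an unadjusted p under 0.05, and 0 in edgeR and DESeq2). The median log2 fold change was 0.68. Over all genes tested 7.98% rose and 9.14% fell, which is also the background for the lists below. Their summed normalized counts were 16764 to 19047 in ad libitum-fed and 24737 to 39933 in CR mice. Egr1, a zinc finger factor induced within minutes by serum, rose from 1065 ± 106 (SD, n = 4) to 2853 ± 727 (SD, n = 5) normalized counts (adjusted p = 2.15e-05, log2 fold change 1.39). Fosl1, an AP-1 subunit, rose from 66.4 ± 19.4 to 237 ± 73.0 (adjusted p = 6.79e-05, log2 fold change 1.83). Hspa1b, which encodes an inducible HSP70 chaperone, had the highest level of the list, at 3143 ± 433 and 4547 ± 1930, and did not pass (adjusted p = 0.241). Under scaling to fibroblast markers 4 of the 28 still rose, with a median of 0.19 against -0.40 over all genes. The part of this response, and of the higher fibroblast marker sum, in the values of Klf4, Klf6 and Klf9 was not tested.

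Klf2, which in T cells drives the genes for leaving lymphoid organs and in endothelium responds to flow, gave normalized counts of 404, 357, 287 and 452 in the ad libitum-fed mice. In the CR mice its normalized counts were 436, 276, 293, 255 and 231. CR 1 lay among the ad libitum-fed mice, 3 of the 5 CR mice lay under all of them, and the ranges overlapped. The means were 375 ± 70.1 (SD, n = 4) and 298 ± 80.4 (SD, n = 5), and the log2 fold change of -0.35 ± 0.20 (SE) had a 95% interval of -0.77 to 0.07 and an adjusted p of 0.262. Only under scaling to fibroblast markers, among 26 alternatives, did Klf2 pass, with a log2 fold change of -0.83 and an adjusted p of 0.0156. Without CR 1 its log2 fold change in limma was -0.49, with a 95% interval of -0.89 to -0.09 and an adjusted p of 0.0972. Klf2 was also lower at an unadjusted p under 0.05 without ad libitum 4 and under library size scaling. T cell markers, whose sum was 2378 ± 549 (SD, n = 4) in ad libitum-fed and 181 ± 55.3 (SD, n = 5) in CR mice, moved further than Klf2, and their part in its level was not tested.

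Genes known as targets of KLF2 and KLF4 in T cells and endothelium went both ways. Of 18 listed, 12 were tested, 2 rose and 5 fell. With single mice left out 5 fell each time, and the number that rose was 1 without ad libitum 4, CR 2 or CR 3 and 3 without ad libitum 5. The median log2 fold change was 0.10. The 5 that fell are genes of lymphocyte homing and survival. Ccr7, the chemokine receptor that leads T cells into lymph nodes, fell from 244 ± 57.1 (SD, n = 4) to 22.5 ± 16.1 (SD, n = 5) normalized counts (adjusted p = 1.93e-06, log2 fold change -3.60). Itgb7, an integrin subunit for homing to the gut, fell from 199 ± 108 to 25.3 ± 8.23 (adjusted p = 2.71e-06, log2 fold change -2.86). S1pr1 and Il7r, named after their values were seen, had log2 fold changes of -1.96 and -3.63. These genes are expressed by T cells, whose markers fell as given above. Cdkn1a, the cell cycle inhibitor p21 that KLF4 activates, rose from 601 ± 158 to 1059 ± 162 (adjusted p = 0.00378, log2 fold change 0.84). It did not rise under scaling to fibroblast markers, where 0 of the 12 rose and 5 fell. The median of the list was then -0.38, against -0.40 over all genes.

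The regulators upstream of KLF2 and KLF4, the MEK5-ERK5-MEF2 kinase arm and its brakes, were followed as well. Of 15 listed, 10 were tested, 0 rose in limma (1 at an unadjusted p under 0.05, and 0 in edgeR and DESeq2) and 1 fell. The number that rose was 1 without ad libitum 4 or with array weights and 2 without ad libitum 5. The median log2 fold change was 0.18. As 7.98% of all genes tested rose and 9.14% fell, 1 of 10 falling is near the share of any genes. Ccm2, a scaffold that holds this arm in check in endothelium, fell from 118 ± 27.9 (SD, n = 4) to 70.5 ± 18.4 (SD, n = 5) normalized counts (adjusted p = 0.0461, log2 fold change -0.73). It no longer passed in 13 of 25 alternatives, TMM and upper-quartile scaling among them, and when any of 7 single mice was left out (ad libitum 2, 3 or 4, or CR 1, 2, 4 or 5), with adjusted p up to 0.173. Hdac7, the class II deacetylase that binds MEF2, had the highest mean of the list over all 9 libraries, at 102 ± 28.9 and 108 ± 14.7 normalized counts, and did not pass (log2 fold change 0.12).

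The remaining 6 members were measured at lower levels, with means of 16.9 to 47.1 normalized counts in ad libitum-fed and 23.9 to 68.5 in CR mice, and none passed the test. Klf7, known from neurons and as an inhibitor of fat cell formation, had 47.1 ± 20.1 (SD, n = 4) and 68.5 ± 25.6 (SD, n = 5) normalized counts. Its log2 fold change was 0.57 with a 95% interval of -0.17 to 1.30, and CR 4 and CR 5, at 31.5 and 63.5, lay among the ad libitum-fed mice. Klf10, a TGF-beta inducible early gene, had 22.2 ± 13.4 and 32.2 ± 8.30 normalized counts. In the main comparison it had the largest estimate of this group, a log2 fold change of 0.70 (95% interval -0.13 to 1.53). In edgeR, DESeq2 and voom the estimate of Klf10 was 0.45, 0.49 and 0.47, under that of Klf7 (0.56, 0.57 and 0.66). In limma without ad libitum 3 the estimate of Klf10 was 0.31. Ad libitum 3 and ad libitum 5, at 7.79 and 13.8 normalized counts, lay under all CR mice and the other ad libitum-fed mice among them. Klf15, a regulator of glucose and branched-chain amino acid metabolism in muscle, liver and fat, had 16.9 ± 7.53 and 23.9 ± 7.34 normalized counts (log2 fold change 0.54, 95% interval -0.30 to 1.38). In 4 of the 5 CR mice Klf15 was above all ad libitum-fed mice, and in CR 2, at 11.3, it was under 3 of them.

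Klf3, a repressor that works with CtBP proteins, had 37.7 ± 19.1 (SD, n = 4) and 51.2 ± 20.6 (SD, n = 5) normalized counts, with a log2 fold change of 0.47 (95% interval -0.22 to 1.16). One mouse of each diet stood high, ad libitum 5 at 65.5 and CR 5 at 84.9. Klf13, which activates the chemokine gene Ccl5 in T cells, was the steadiest of the low members at 34.5 ± 7.98 and 37.1 ± 5.84 normalized counts. Its log2 fold change of 0.12 had a 95% interval of -0.43 to 0.67. Klf5, a driver of epithelial proliferation and of early fat cell formation, had 27.1 ± 15.0 and 30.7 ± 26.6 normalized counts and the widest spread of the family within CR mice (coefficient of variation 86.6%). Its normalized counts were 47.6, 11.7, 23.2 and 25.9 in ad libitum-fed mice and 5.80, 12.9, 18.2, 48.0 and 68.6 in CR mice, so that CR held both the lowest and the highest value. The log2 fold change of Klf5 was -0.14 (95% interval -1.30 to 1.02), with a sign opposite to the difference of the means, and it is uncertain in direction. At these counts (4 to 175 molecules per library for the 6 genes), the 95% intervals of 5 genes reach past 2-fold in at least 1 direction, while that of Klf13 reaches 1.59-fold, and a difference within its interval is compatible with the data.

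The order of the levels within a diet was read on the normalized counts of 3′ tags, which need no division by length but still depend on how well each 3′ end is captured. In ad libitum-fed mice the order by mean was Klf2, Klf4, Klf6, Klf9, then Klf7, Klf3, Klf13, Klf5, Klf10 and Klf15. Ranges of neighbours in this order overlapped except for Klf6 (187 to 255) and Klf9 (54.1 to 180.4). In CR mice the order was Klf4, Klf6, Klf9, Klf2, then Klf7, Klf3, Klf13, Klf10, Klf5 and Klf15. There Klf4 (561 to 998.5) stood clear of Klf6 (299.8 to 394), Klf6, Klf9 and Klf2 overlapped, and Klf2 (231 to 436) stood clear of Klf7 (31.5 to 103). In all 9 libraries the lowest of Klf2, Klf4, Klf6 and Klf9 was above the highest of the other 6 members.

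The summed level of the family was 1215 ± 264 (SD, n = 4) normalized counts in ad libitum-fed and 1978 ± 307 (SD, n = 5) in CR mice, with ranges of 863 to 1462 and 1712 to 2496. Within this sum, Klf2 took 31.1% ± 1.58 (SD, n = 4) in ad libitum-fed and 15.4% ± 4.72 (SD, n = 5) in CR mice, and its ranges of 29.6% to 33.3% and 9.24% to 22.5% did not overlap. The share of Klf4 was 23.98% ± 3.96 and 38.7% ± 3.81, also without overlap (18.1% to 26.3% against 32.7% to 43.2%). Klf9 took 10.1% ± 2.88 and 16.3% ± 4.42, with overlapping ranges. Klf6, although higher in count, kept to 19.1% ± 2.06 and 17.3% ± 1.97 of the sum. The other 6 members took 1.34% to 4.13% each in ad libitum-fed mice and 1.21% to 3.48% in CR mice. Shares of one sum move against each other by construction and are given as a description.

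**Figure D3:**
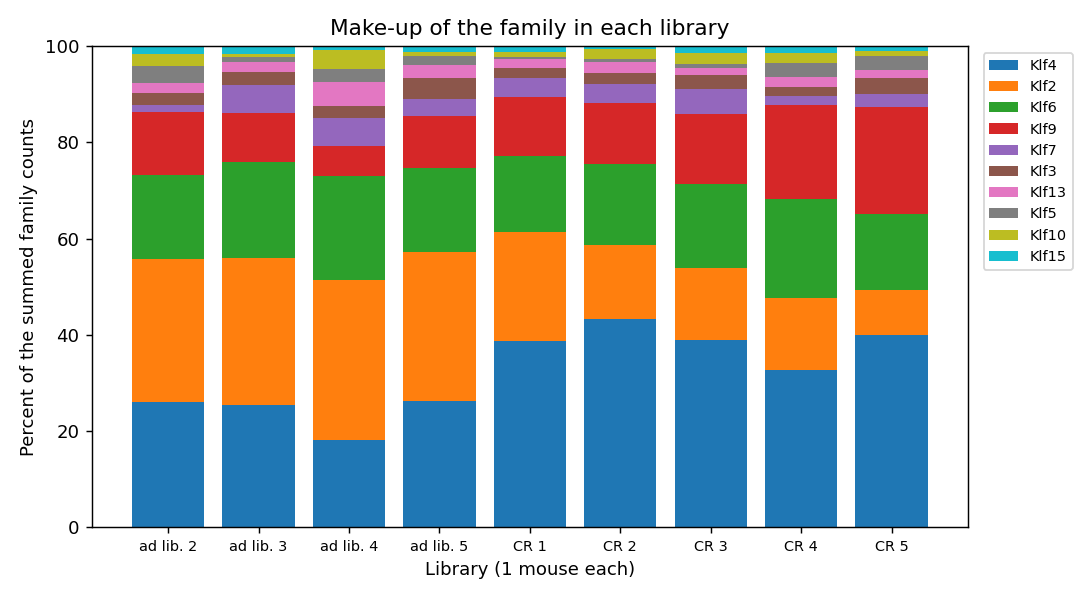
Stacked bars give the percent of the summed family counts (y axis) that each of the 10 members takes in each library (x axis, 1 mouse each). Klf4 takes 18.1% to 26.3% in the 4 ad libitum-fed mice and 32.7% to 43.2% in the 5 CR mice, and Klf2 takes 29.6% to 33.3% and 9.24% to 22.5%.

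Ratios between members of the same library do not depend on how the libraries are scaled to each other. The pairs among Klf2, Klf4, Klf6 and Klf9 were taken after the values were seen, a choice that favours separation of the diets, and carry no test. How often ratios of other gene pairs separate was not examined. The ratio of Klf4 to Klf2 counts was 0.88, 0.84, 0.54 and 0.85 in ad libitum 2 to 5 and 1.72, 2.80, 2.60, 2.20 and 4.33 in CR 1 to 5. Klf2 thus had more counts than Klf4 in every ad libitum-fed mouse and fewer in every CR mouse, a difference in mean log2 ratio of 1.77. For Klf9 to Klf2 the ratios were 0.45, 0.33, 0.19 and 0.35 against 0.55, 0.83, 0.97, 1.31 and 2.42, and CR 1, the CR mouse with the most Klf2, came nearest to the ad libitum-fed mice. For Klf6 to Klf2 they were 0.56 to 0.66 against 0.70 to 1.71, again without overlap. Klf4 also stood higher relative to Klf6 in CR mice, at 1.59 to 2.58 against 0.83 to 1.51, and Klf9 relative to Klf6 narrowly so, at 0.763 to 1.42 against 0.29 to 0.759. The ratio of Klf4 to Klf9 overlapped, at 1.98 to 2.88 and 1.68 to 3.38, and its mean log2 ratio differed by 0.0057 between the diets. Within the CR mice this last ratio was 3.14, 3.38 and 2.68 in CR 1, CR 2 and CR 3, and 1.68 and 1.79 in CR 4 and CR 5.

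**Figure D4:**
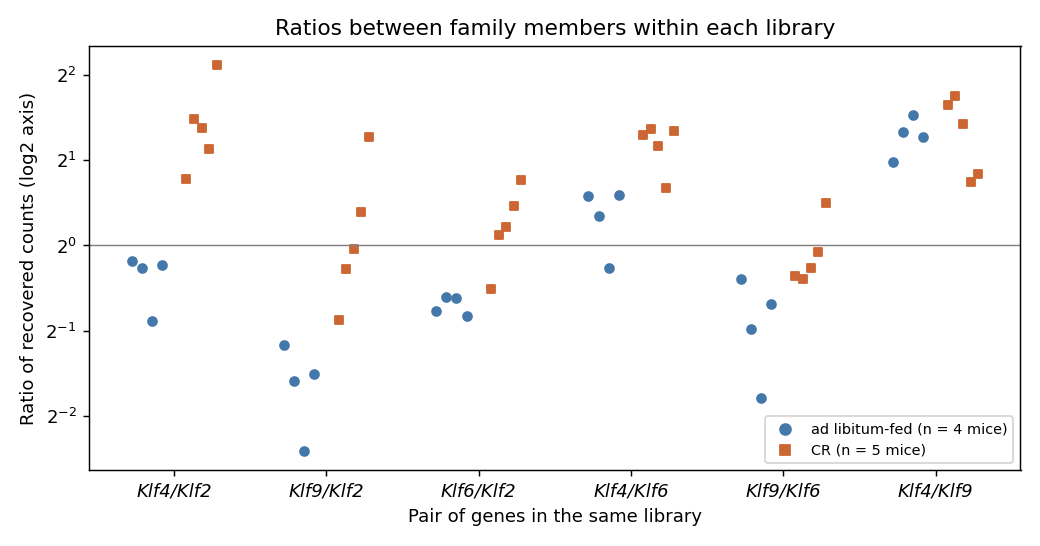
Ratios of recovered counts (log2 axis, y) between pairs of members in the same library (x) are shown for 4 ad libitum-fed mice (circles) and 5 CR mice (squares), with a line at a ratio of 1. The points of the diets are apart for all pairs except Klf4/Klf9, and Klf4/Klf2 lies at 0.54 to 0.88 in ad libitum-fed and 1.72 to 4.33 in CR mice. The pairs were chosen after the values were seen, which favours separation.

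Single mice left a mark on several members at once. Ad libitum 4 was the lowest of its diet in 6 of the 10 members (Klf2, Klf3, Klf4, Klf6, Klf9 and Klf15), while it was the highest in Klf10 and Klf13. CR 5 was the highest of its diet in 6 members (Klf3, Klf4, Klf5, Klf6, Klf9 and Klf13) and the lowest in Klf2. With both left out, the median log2 fold change of the members was 0.29, and 2 of them (Klf4 and Klf9) rose.

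Partners and relatives of the family were followed in lists, beside which 7.98% of all genes tested rose and 9.14% fell. Of 16 other KLF and SP genes, 6 had a row and 3 were tested, of which 0 rose and 0 fell in limma (0 also at an unadjusted p under 0.05, and 0 in edgeR and DESeq2). Klf16, a repressor of this group, had 18.9 ± 5.79 (SD, n = 4) and 23.1 ± 8.39 (SD, n = 5) normalized counts (adjusted p = 0.648, log2 fold change 0.26). The median log2 fold change of the 3 turned to -0.20 under scaling to fibroblast markers, against -0.40 over all genes. Of 19 corepressors and coactivators that these factors recruit, 16 were tested, 1 rose and 0 fell in limma (1 at an unadjusted p under 0.05). Their median log2 fold change was -0.12, and edgeR and DESeq2 gave 0 in either direction. Ctbp1, the corepressor bound by KLF3, had the highest mean over all 9 libraries, at 140.3 in ad libitum-fed and 131 in CR mice, and did not pass (log2 fold change -0.10). Among 6 tested genes of KLF protein turnover (of 14 listed), Usp10, a deubiquitinase, rose from 40.2 ± 22.5 to 81.6 ± 25.1 (adjusted p = 0.0335, log2 fold change 1.10), and 0 fell (0 also at an unadjusted p under 0.05). Usp10 was lost in 14 of 25 alternatives, edgeR and DESeq2 (0 in either direction) and the omission of any of 6 single mice (ad libitum 4 or 5, or CR 1, 3, 4 or 5) among them, with adjusted p up to 0.234. Stub1, a ubiquitin ligase of misfolded proteins, had the highest level of that list, at 149 and 186 on average, and did not pass (log2 fold change 0.37).

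Genes of fat cell formation, in which KLF4 and EGR2 act together on Cebpb in cultured mouse preadipocytes, included 3 of 9 tested that rose and 1 that fell, of 17 listed (median log2 fold change 0.65). Egr2 rose from 71.7 ± 23.7 (SD, n = 4) to 152 ± 25.3 (SD, n = 5) normalized counts (adjusted p = 0.00279, log2 fold change 1.12). Cebpb, an early adipogenic factor that is also induced in inflammation, rose from 1337 ± 299 to 2061 ± 250 (adjusted p = 0.0133, log2 fold change 0.65). Gata3, which holds preadipocytes undifferentiated and is a master factor of T helper cells, fell from 34.8 ± 9.58 to 4.59 ± 1.54 (adjusted p = 0.00021, log2 fold change -2.69). Scaled to fibroblast markers, 0 of the 9 rose and 1 fell, with a median of 0.16 against -0.40 over all genes.

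Glucocorticoid and nutrient genes, the setting in which KLF9 and KLF15 are best known, went both ways. Of 21 listed, 16 were tested, 5 rose and 1 fell (median log2 fold change 0.42). Nr1d1, the circadian repressor REV-ERB alpha, rose from 26.4 ± 3.56 (SD, n = 4) to 99.2 ± 28.8 (SD, n = 5) normalized counts (adjusted p = 9.74e-05, log2 fold change 1.82). Cdkn1c, the cell cycle inhibitor p57, rose from 58.1 ± 11.4 to 139 ± 39.5 (adjusted p = 0.0018, log2 fold change 1.22). Mt1, a metallothionein induced by metals and glucocorticoids, had the highest level of the list and rose from 12188 ± 3823 to 23241 ± 2640 (adjusted p = 0.00231, log2 fold change 0.99). Tsc22d3, which encodes the glucocorticoid-induced leucine zipper and is abundant in lymphocytes, fell from 383 ± 78.9 to 244 ± 28.4 (adjusted p = 0.0213, log2 fold change -0.63), but did not pass in 6 of 25 alternatives, among them the omission of ad libitum 2, ad libitum 3 or CR 5 (adjusted p up to 0.0902). When scaled to fibroblast markers the same list gave 1 that rose and 2 that fell, with a median of -0.07 against -0.40 over all genes. Under upper-quartile scaling 6 rose and 0 fell.

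Genes of TGF-beta signaling, matrix and injury, linked to KLF5, KLF6 and KLF10, were listed 23 strong, and of the 18 tested 4 rose and 1 fell (median log2 fold change 0.42). Atf3, a stress-induced factor that is also in the early response list, rose from 276 ± 22.8 (SD, n = 4) to 648 ± 185 (SD, n = 5) normalized counts (adjusted p = 0.000314, log2 fold change 1.19). Smad6, an inhibitor of BMP signaling, rose from 8.06 ± 5.47 to 40.8 ± 14.3 (adjusted p = 0.00113, log2 fold change 2.40). Its ad libitum mean is near the 2.69 to 5.85 normalized counts that a count of 0 allows there. The size of its rise thus rests on few counts in that diet, while it passed in all 25 alternatives. Tgfb1, the ligand, fell from 59.6 ± 15.1 to 27.8 ± 4.65 (adjusted p = 0.00757, log2 fold change -1.06). Hmox1, a heme oxygenase and the highest of the list, was at 1398 ± 1025 and 1631 ± 322 and did not pass (log2 fold change 0.49). Under scaling to fibroblast markers 1 of the 18 rose and 1 fell, with a median of -0.06 against -0.40 over all genes. The count that rose was 2 without ad libitum 4 and 2 without CR 3. Eng and Tgfbr3, named after their values were seen, were the other 2 that rose, and they no longer passed in 16 and 5 of 25 alternatives.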

How the data were processed

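The authors sequenced bulk MARS-Seq libraries of 9 mice, used cutadapt for trimming, STAR for alignment to mm10 and HTSeq for counting over the 3′ ends of RefSeq genes, collapsed duplicates by molecular identifier with a correction for saturation, and deposited this signal as counts normalized by DESeq2 size factors (no software versions are given in the sources used). At least 99.98% of the deposited values of each library were whole multiples of 1 step to within 0.0051, which gave the recovered counts. No libraries of a diet were duplicates (chi-square per degree of freedom of at least 3.70 and 5.43).

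Normalized counts were compared by limma 3.58.1 (trend, R 4.3.3) on log2(normalized count + 1). The added 1 shrinks fold changes of low genes. Their log2 fold changes can still exceed those of edgeR and DESeq2, as for Klf10 (0.70 against 0.45 and 0.49). The test covered the 6815 genes that 4 or more libraries held at 10 normalized counts or above. Adjustment was by Benjamini-Hochberg over all of them. "Rose" and "fell" mean an adjusted p of at most 0.05. P-values set the difference between the diets against the spread between mice of a diet, which limma shrinks toward its trend over all genes. Alternatives were edgeR 4.0.16 quasi-likelihood, DESeq2 1.42.0 and voom on the recovered counts, 4 other scalings, other filters, pseudocounts and thresholds, weights, a replicate block and leaving out each library. The same-numbered mice of the diets did not deviate together (r of -0.07 to 0.04).

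The members and gene lists were chosen with earlier results of these data known. Genes named from a list are, per direction, the 2 of smallest p past the threshold, plus the one with the highest mean, except where stated. Some genes that this rule names are not reported here. Matches to promoter motifs were sought on both strands. Counts of 3′ tags do not resolve isoforms.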

Additional observations from a re-analysis of the deposited data

Results flagged for a closer look

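Klf15 in CR mouse 2 was at 11.3 normalized counts, while the other 4 CR mice lay between 25.1 and 30.6. The gap to the nearest mouse was 0.717 of the range of the diet, just past the limit of 0.71 for 5 samples. Of the 20 groups examined this way (10 members in 2 diets) it was the only one past its limit, and chance gives about 1 in 20. At 14 recovered counts the value has a wide counting error.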

How the results depend on the processing

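Klf4 and Klf9 rose under all 26 alternatives, with log2 fold changes of 0.93 to 1.57 and 0.83 to 1.61. The alternative of adjusted p alone reuses the main fit, so it could not change which genes rose or fell. It is also among the 25 alternatives counted for list genes. Klf6 did not pass under 9 of them: library size scaling (0.47), fibroblast marker scaling (0.08), an adjusted p of 0.01, limma without trend (adjusted p = 0.0966), without ad libitum 4, CR 4 or CR 5, without ad libitum 4 and CR 5 together (0.42, chosen after seeing the data), and the replicate block. That block on the mouse number, which does not pair the mice, gave 0.60 for Klf6 (adjusted p = 0.0617), 858 called genes and 0.30 for Klf5. No ad libitum-fed mouse shares a number with CR 1, so the block gave the same log2 fold changes as leaving out CR 1. Under fibroblast marker scaling 1 member fell (Klf2, -0.83), Klf3 and Klf13 turned to -0.0051 and -0.36, and 78 genes were called higher and 1025 lower, against 526 and 541 in the main comparison. Upper-quartile scaling gave 708 and 489. Klf5 changed sign under edgeR (0.10) and DESeq2 (0.16), and ranged from -0.54 to 0.30 with single mice left out, while Klf13 ranged from -0.0172 to 0.22. All called genes numbered 1067, falling to 594 at an adjusted p of 0.01 and to 653 without ad libitum 4 and CR 5. With single mice left out they numbered 779 to 1140, and members that rose 2 to 3. The causes were not tested beyond the construction of each alternative.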
